A study of Danio rerio with 18 samples.

Results

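The Nrf2 branch of the oxidative stress response and the glutathione peroxidase 1 paralogs were followed in whole zebrafish larvae exposed to perfluorobutanesulfonic acid (PFBS), a short-chain perfluorinated surfactant. The 10 genes were matched by symbol, from a list chosen with earlier results of these data known. Shares called among them and on the pathway lists below are therefore descriptive only. The genes were the regulator nfe2l2a, the peroxidases gpx1a and gpx1b, and the targets hmox1a, nqo1, gclc, gclm, prdx1, srxn1 and txn. Their transcripts were summed per gene, which gave 10 of the 32520 genes in the table. All larvae were of the AB wild type strain and 120 hours post fertilisation (hpf) old, and whole bodies were sequenced. The 18 libraries formed 6 groups of 3: PFBS at 7, 70, 700, 3500 and 7000 µM, and unexposed controls. The labels give neither the vehicle, nor how long exposure lasted, nor how many larvae made up a sample. They also do not state that replicates came from separate animals or pools. Each p-value below sets a difference between groups only against the scatter of these samples, which may be technical.

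Nrf2 is a transcription factor that Keap1 holds in the cytoplasm and marks for degradation. When oxidants or electrophiles modify Keap1, Nrf2 accumulates, enters the nucleus, pairs with small Maf proteins and switches on genes for glutathione synthesis, peroxide removal, quinone reduction and haem breakdown. Nrf2 activity is set largely by the stability of the protein, so the mRNA of nfe2l2a is a limited guide to it. Glutathione peroxidase 1 is a selenoprotein that uses glutathione to reduce hydrogen peroxide and organic hydroperoxides, and zebrafish carry it as the paralogs gpx1a and gpx1b.

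The total count per library ran from 14937147 to 19267232. Of 58 markers in 10 tissue lists, 57 had reads, and the other, a photoreceptor marker, was absent from the deposited table. Thus muscle, epidermis, blood, liver, gut, pancreas, eye, neurons, neutrophils and macrophages were all represented in the whole-body RNA. Replicate 3 at 7000 µM stood apart: its 7 fast muscle markers summed to 15970 CPM (counts per library after scaling for its size), against 39830 and 43450 in the other 2 libraries at 7000 µM and 61540 to 63300 in controls. The log2 changes of the members at 7000 µM are therefore also given without it. The mitochondrial share of counts was 8.78% to 11.98% at 7000 µM and 6.16% to 6.78% in controls.

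gpx1b and prdx1, which both encode peroxide-reducing enzymes, were the only members higher than in controls past the threshold, an adjusted p of 0.05 in edgeR's quasi-likelihood test with Benjamini-Hochberg adjustment over 21046 genes. They passed it at 700, 3500 and 7000 µM, while the regulator nfe2l2a and the targets hmox1a, nqo1, gclc, gclm and txn passed it at no concentration. The tenth member, srxn1, had too few counts to be tested. At 7 µM 0 of the 9 tested members were called (3 at an unadjusted p under 0.05, 0 in DESeq2), against 0.0333% of all genes. At 70 µM 0 of 9 were called (4 at an unadjusted p under 0.05, and txn in DESeq2), against 0.280% of all genes. At 700 µM 2 of 9 were called, both higher, against 3.20% of all genes in either direction and 1.27% in the higher one. For 3500 µM the count was again 2 of 9, both higher, against 9.47% and 5.14%. For 7000 µM it was 2 of 9, both higher, a share close to the 25.0% of all genes called there in either direction (12.7% higher). The median log2 fold change of the 9 members was, in ascending order of concentration, 0.01, -0.03, -0.08, 0.11 and 0.16, beside 0.00, 0.03, 0.01, 0.01 and -0.01 over all genes tested. Of all calls at 700 µM, 39.6% were higher genes, and 29.3% with upper-quartile scaling. At 3500 µM the share was 54.3%, and 38.9% with upper-quartile scaling or 20.9% with library totals alone. Among the 7 calls at 7 µM it was 42.9%, and 28.6% with library totals alone.

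**Figure D1:**
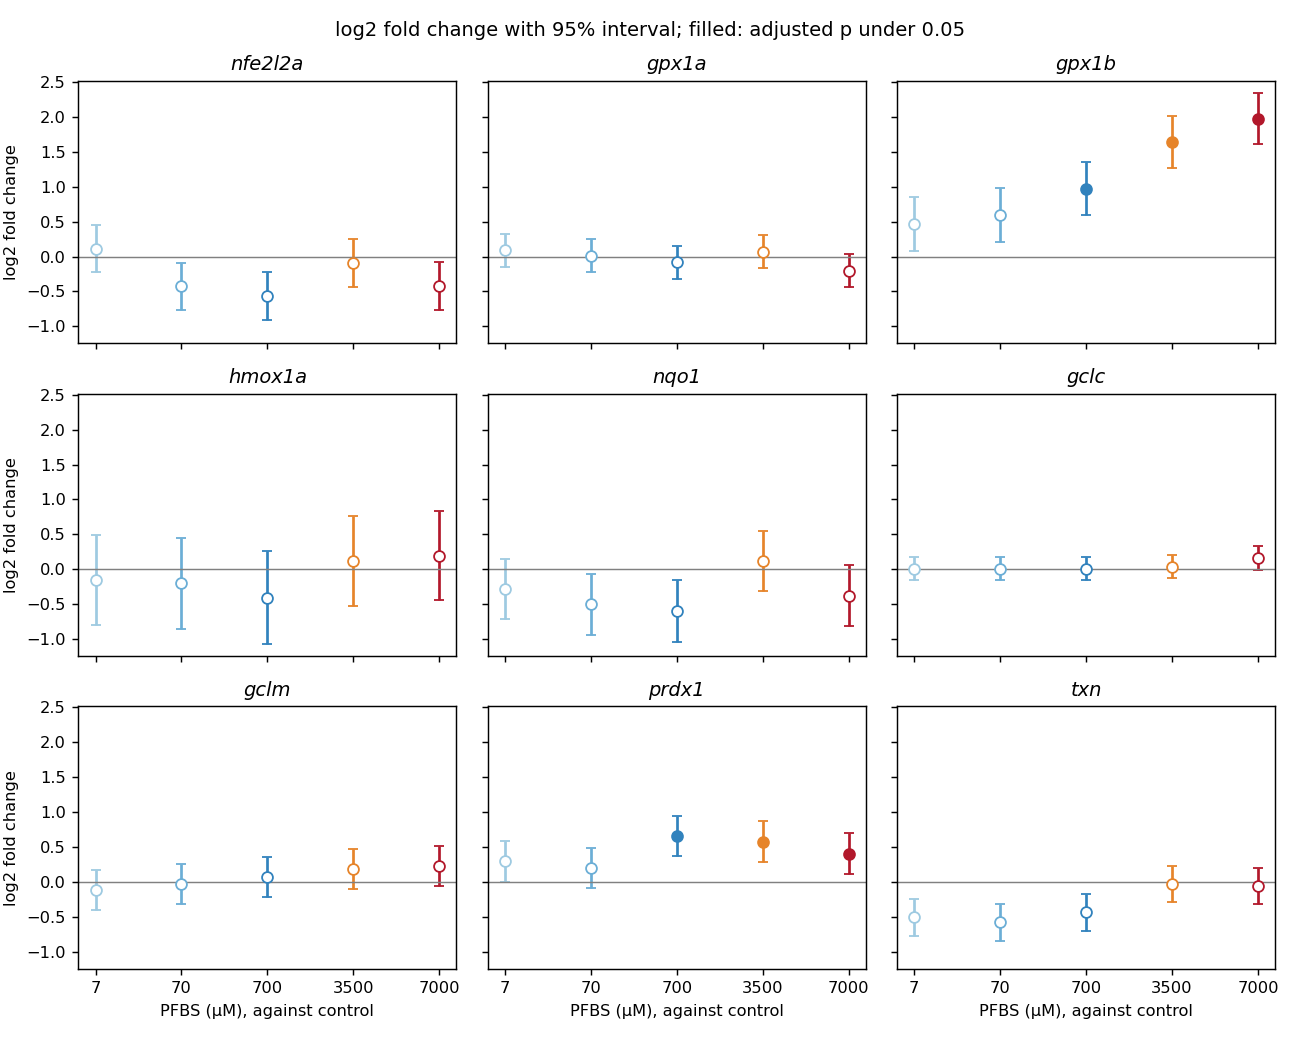
log2 fold change of the 9 tested members at each PFBS concentration against controls, with the 95% interval of the fit; filled points have an adjusted p under 0.05. gpx1b climbs from 0.46 at 7 µM to 1.98 at 7000 µM, prdx1 is filled at the 3 highest concentrations, and the other panels hold open points only.

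gpx1b was the member that differed most from controls, and its mean level was higher at each successive concentration. The deposited table places it on chromosome 6 at 42338309 to 42341219 on the plus strand (ENSDARG00000006207), with a single transcript and no overlapping gene. The 3 control libraries had 4.34, 3.31 and 4.24 CPM of gpx1b, those at 7 µM had 5.16, 5.81 and 5.48 CPM, and those at 70 µM had 6.35, 6.36 and 5.37 CPM. Levels reached 7.82, 8.85 and 6.76 CPM at 700 µM, then 12.3, 11.5 and 13.4 CPM at 3500 µM, and finally 20.6, 13.03 and 13.4 CPM at 7000 µM. Every exposed library at every concentration lay above all 3 control libraries. Genes with all 3 exposed libraries above all 3 controls made up, in ascending order of concentration, 7.18%, 9.27%, 15.1%, 16.2% and 20.6% of the genes tested.

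The log2 fold change of gpx1b was 0.46 ± 0.18 (SE) at 7 µM and 0.60 ± 0.18 at 70 µM, with adjusted p = 0.845 and 0.185, so neither was called. It rose 1.96-fold at 700 µM (log2 0.97 ± 0.18, adjusted p = 0.0112), 3.12-fold at 3500 µM (log2 1.64 ± 0.18, adjusted p = 4.75e-05) and 3.93-fold at 7000 µM (log2 1.98 ± 0.18, adjusted p = 2.73e-06). By p-value it ranked 71st, 11th and 9th of 21046 genes in these comparisons. The 7000 and 3500 µM groups overlapped, and the difference between them was not called (log2 0.33 ± 0.16, adjusted p = 0.218). Over the 6 groups taken in order, gpx1b rose by 0.39 ± 0.03 log2 units per step (adjusted p = 2e-07). In the authors' deposited table the log2 fold changes of its transcript were 0.97, 1.67 and 2.03 in the same comparisons, with q = 0.0127, 1.06e-09 and 8.61e-10. The calls at 3500 and 7000 µM held when any single library of the comparison was left out, and without replicate 3 at 7000 µM the log2 change was 2.08. Without replicate 1 at 7000 µM, the library with the most gpx1b, it was 1.73. The difference from 3500 µM was then 0.11 (adjusted p = 0.696), so the last step rested largely on that library. Summed photoreceptor markers (4 of 5 in the deposited table, all 4 with reads) were also higher, against 5270 to 5412 CPM in controls. They were at 7506 to 9253 CPM at 700 µM, 6500 to 7888 at 3500 µM and 7581 to 10970 at 7000 µM. Neuron markers summed to 2367 to 2591 CPM at 700 µM, 2176 to 2406 at 3500 µM and 2442 to 2773 at 7000 µM. Their control range was 2025 to 2339 CPM. Of 6 neuron markers 0 were called at 700 µM (2 at an unadjusted p under 0.05), 1 (lower) at 3500 µM and 2 (higher) at 7000 µM. Over all genes 3.20%, 9.47% and 25.0% were called in either direction. Enterocyte markers summed to 430.1 to 648.7 CPM at 700 µM, 448.9 to 611.1 at 3500 µM and 324.7 to 406.4 at 7000 µM. In controls the enterocyte sums were 301.6 to 389.9 CPM. The part of these tissues in the gpx1b values was not tested. The call at 700 µM was lost without control replicate 2, 700 µM replicate 1 or 700 µM replicate 2 (adjusted p = 0.0601, 0.0568 and 0.0674).

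The paralog gpx1a, on chromosome 11 at 36048579 to 36156971 on the minus strand, was the more abundant of the pair on a length-scaled measure. In the authors' TPM values (transcript abundance scaled for length and library size) it averaged 42.5 ± 7.8 at 7000 µM and 50.6 ± 3.1 in controls (SD, n = 3 each), and gpx1b averaged 28.0 ± 6.4 and 7.38 ± 0.94 TPM. In CPM, gpx1a had 27.0, 33.6 and 24.2 in the 7000 µM libraries against 31.2, 34.0 and 32.5 in controls. The groups overlapped, and gpx1a was not called at any concentration, with log2 fold changes between -0.20 at 7000 µM (adjusted p = 0.191) and 0.09 at 7 µM. The value at 7000 µM depended on single libraries: it was -0.10 (adjusted p = 0.598) without replicate 3 and -0.34, then called (adjusted p = 0.0283), without replicate 2. The share of gpx1b in the summed TPM of the paralogs was 12.8% ± 2.1 in controls and, in ascending order of concentration, 16% ± 1.3, 18.1% ± 2.2, 23.4% ± 3.2, 30.5% ± 0.72 and 39.8% ± 8.0 in exposed larvae (SD, n = 3 each). Library by library the share was 47.8%, 31.8% and 39.9% at 7000 µM against 14.4%, 10.5% and 13.5% in controls, without overlap. The summed TPM of the paralogs was 70.5 ± 7.3 at 7000 µM and 57.9 ± 2.2 in controls. All gpx1a counts came from transcript gpx1a-201. The second annotated transcript, which overlaps brk1 on the same strand and CR933559.1 on the other, had 0 counts. How reads matching both paralogs were counted is not stated in the labels or headers, so their split is uncertain to that extent.

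**Figure D2:**
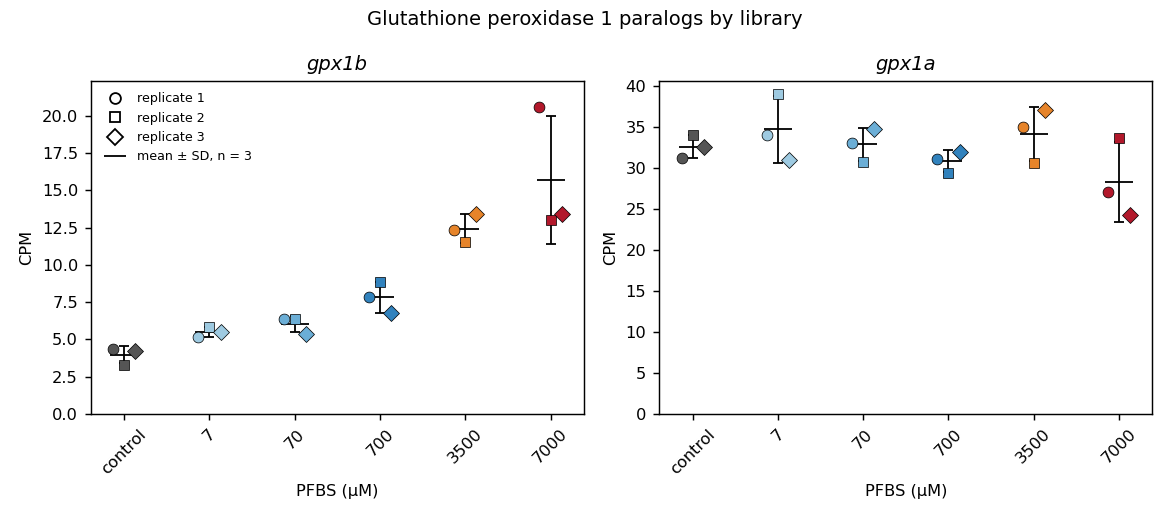
CPM of gpx1b (left) and gpx1a (right) in each library, by PFBS concentration with controls at the low end; symbols mark the replicate number, bars the mean ± SD of 3 libraries. All exposed gpx1b points lie above the control points, while the gpx1a groups overlap between 24.2 and 39.0 CPM.

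Of the 7 further glutathione peroxidase genes in the table, gpx3, gpx4a and gpx4b each passed the threshold at a single concentration. gpx3, the secreted form found in plasma, had 10.8, 11.8 and 14.6 CPM at 7000 µM against 6.11, 6.75 and 5.12 in controls. All 3 exposed libraries were above the control range, as in 20.6% of all genes tested there. gpx3 rose 2.07-fold (log2 1.05 ± 0.22, adjusted p = 0.0036). At 3500 µM its log2 fold change was -0.03, and the rise at 7000 relative to 3500 µM was called (log2 1.08, adjusted p = 0.0111; 0.0607 without replicate 3 at 7000 µM). gpx4a and gpx4b encode enzymes that reduce phospholipid hydroperoxides in membranes. gpx4a had 113.1, 84.5 and 91.2 CPM at 3500 µM against 58.4, 67.5 and 52.3 in controls, again without overlap, as in 16.2% of all genes. It rose there (log2 0.70 ± 0.21, adjusted p = 0.0432), was not called at 700 µM with a log2 change of 0.73 (adjusted p = 0.0623), and stood at 0.07 at 7000 µM. gpx4b averaged 137.2 ± 8.9 CPM at 7000 µM and 113.1 ± 4.6 in controls (log2 0.28 ± 0.09, adjusted p = 0.0352). The call of gpx3 held without any 1 library of the comparison with controls, that of gpx4a was kept in 1 of 6 such fits (adjusted p = 0.0294 to 0.172) and that of gpx4b in 2 of 6 (0.0408 to 0.15). gpx2, gpx7, gpx8 and gpx9 were not called at any concentration.

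prdx1 encodes a peroxiredoxin that reduces hydrogen peroxide with electrons from thioredoxin, and lies on chromosome 2 at 6104378 to 6115688 on the minus strand. Controls had 5.74, 5.95 and 5.48 CPM of prdx1, and the libraries at 7 and 70 µM had 6.36 to 7.47 CPM. The 700 µM libraries had 8.20, 9.06 and 9.80 CPM, those at 3500 µM 6.64, 9.72 and 9.29 CPM, and those at 7000 µM 7.97, 7.70 and 7.06 CPM. Every exposed library lay above the highest control, although the lowest exceeded it only slightly. Genes with all 3 exposed libraries above all 3 controls made up 7.18% of those tested at 7 µM and 20.6% at 7000 µM. The mean of prdx1 was highest at 700 µM, where it rose 1.58-fold (log2 0.66 ± 0.14, adjusted p = 0.0187). It rose 1.49-fold at 3500 µM (log2 0.58 ± 0.14, adjusted p = 0.0167) and 1.32-fold at 7000 µM (log2 0.40 ± 0.14, adjusted p = 0.0397). The 7000 and 3500 µM groups were not told apart (log2 -0.17 ± 0.13, adjusted p = 0.469). Over the 6 ordered groups prdx1 rose by 0.095 ± 0.023 log2 units per step (adjusted p = 0.00435), and 18.6% of all genes had a called upward trend. The prdx1 trend was kept in all 18 fits that left out 1 library and was lost with transcripts in place of genes (adjusted p = 0.385).

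The prdx1 calls against controls were sensitive to leaving out single libraries and rested on the sum of its transcripts. In the fits without 1 library of the comparison, the log2 change itself stayed at 0.595 to 0.72 at 700 µM. It stayed at 0.48 to 0.716 at 3500 µM and 0.366 to 0.455 at 7000 µM. Leaving out any 1 of the 6 libraries ended the call at 7000 µM (adjusted p = 0.0656 to 0.114), including replicate 3 at 7000 µM (log2 0.46, adjusted p = 0.0656). The call at 700 µM was lost without control replicate 1 or 2 or without 700 µM replicate 1 or 2 (adjusted p = 0.0568 to 0.0926), and that at 3500 µM without control replicate 1 or 3500 µM replicate 3 (0.0641 and 0.0967). The main transcript, prdx1-201, was not called on its own (log2 0.28, adjusted p = 0.531 at 7000 µM), and the authors' deposited table gives it q = 0.816 there. Another protein-coding transcript had 83, 35 and 43 counts at 7000 µM against 16, 22 and 29 in controls, or 41.3% against 23.1% of the gene's counts. A retained-intron transcript had 8.97% of them at 7000 µM and 22.1% in controls. How reads were shared between transcripts is not stated.

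gclc and gclm encode the catalytic and the modifier subunit of glutamate-cysteine ligase, the rate-limiting enzyme of glutathione synthesis. gclc, on chromosome 13 at 2357637 to 2392664, had 34.5, 35.3 and 33.8 CPM at 7000 µM against 32.0, 31.3 and 29.5 in controls. The groups did not overlap, and 20.6% of all genes tested likewise had all 3 libraries at 7000 µM above all 3 controls. The gclc difference was small and was not called (log2 0.16 ± 0.08, adjusted p = 0.148). At the other 4 concentrations the log2 change of gclc was 0.01 to 0.04. gclm, on chromosome 8 at 15269423 to 15277252, had 8.15, 9.21 and 8.07 CPM at 7000 µM against 6.97, 6.88 and 7.89 in controls, also without overlap and not called (log2 0.22 ± 0.14, adjusted p = 0.233). The 95% interval of that difference ran from -0.06 to 0.51. The trend of gclm over the 6 ordered groups was called, at 0.06 ± 0.02 log2 units per step (adjusted p = 0.0472). Of the 9 members 4 had a called trend, beside 37.5% of all genes: 3 upward, beside 18.6%, and 1 downward, beside 18.9%. The gclm trend was kept in 5 of 18 fits that left out 1 library. It was not called with upper-quartile scaling, library totals alone, no filter on low counts, a replicate block, transcripts in place of genes or DESeq2 (adjusted p = 0.0518 to 0.0967), and was called with protein-coding transcripts only (0.0433). Without replicate 3 at 7000 µM the log2 changes there were 0.18 for gclc and 0.26 for gclm, neither called.

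nfe2l2a, which encodes an Nrf2 paralog, was not higher than in controls past the threshold at any concentration. The gene lies on chromosome 9 at 1654284 to 1683368 on the plus strand. Controls had 49.8, 49.2 and 39.0 CPM, and the 7 µM libraries 40.1, 57.2 and 51.8 CPM. The 70 µM libraries had 29.8, 32.9 and 39.8 CPM and the 700 µM libraries 25.4, 30.7 and 36.7 CPM. The 3500 µM libraries were back at 44.5, 46.4 and 38.5 CPM, and those at 7000 µM had 34.2, 41.1 and 28.0 CPM. At 700 µM all 3 exposed libraries lay below the controls, as did those of nqo1 and of 14.3% of all genes tested; the other concentrations overlapped the controls. The log2 fold changes were 0.11, -0.43, -0.57, -0.09 and -0.42 in ascending order of concentration, each with an SE of 0.16. The adjusted p was 0.0627 at 700 µM and 0.0674 at 7000 µM. Without replicate 3 at 70 µM the log2 change at 70 µM was -0.55 (adjusted p = 0.115). The call was gained at 700 µM with only the 2 groups compared in the fit (adjusted p = 0.0163), in DESeq2 (0.0271), without control replicate 3 (0.0469) or without 700 µM replicate 3 (0.0395). At 7000 µM it was gained without control replicate 3 (0.0402) or 7000 µM replicate 2 (0.0258), and without 7000 µM replicate 3 the log2 change was -0.29 (adjusted p = 0.276). Across the ordered groups nfe2l2a fell by 0.08 ± 0.03 log2 units per step (adjusted p = 0.0272), a call that held in 12 of 18 fits leaving out 1 library and was lost with transcripts in place of genes (0.0549).

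nqo1 encodes a quinone reductase that is a standard readout of Nrf2 activity, and lies on chromosome 7 at 56703254 to 56722320. At 7 µM it had 13.85, 18.52 and 19.93 CPM and at 70 µM 13.06, 12.88 and 19.06 CPM, both overlapping the controls. The log2 changes there, -0.28 and -0.50, were not called (adjusted p = 0.9995 and 0.303). Without replicate 3 at 70 µM the log2 change at 70 µM was -0.71 (adjusted p = 0.104). Levels of nqo1 were 13.2, 13.8 and 15.2 CPM at 700 µM against 23.7, 22.03 and 17.97 in controls, without overlap. The difference was not called (log2 -0.60 ± 0.21, adjusted p = 0.117), whereas with only the 2 groups in the fit it was (adjusted p = 0.00864), and the authors' deposited table gives q = 0.0191 for transcript nqo1-201. At 3500 µM the libraries were at 23.8, 19.6 and 25.5 CPM, within or just above the control range (log2 0.11, adjusted p = 0.765). At 7000 µM replicates 1 and 3 had 13.9 and 12.1 CPM and replicate 2 had 23.1, and the log2 change of -0.38 was not called (adjusted p = 0.187) with all libraries. It was -0.20 (adjusted p = 0.562) without replicate 3, and -0.71 and called (adjusted p = 0.0126) without replicate 2.

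The summed level of 6 epidermis markers (krt4, krt5, cyt1, icn, krt91 and agr1, all with reads) is given here beside nfe2l2a and nqo1. It was 12500, 10570 and 10170 CPM in controls and 7143, 10080 and 11190 CPM at 7 µM. The 70 µM libraries had 4767, 4611 and 9328 CPM and the 700 µM libraries 3500, 4652 and 7452 CPM. At 3500 µM the sums were 9249, 8538 and 8920 CPM, and at 7000 µM they were 5180, 5610 and 1538 CPM. At 700 µM 0 of these markers were called in the quasi-likelihood test although all 6 had an unadjusted p under 0.05, with a median log2 change of -1.06. At 7000 µM 5 of 6 were called lower, where 25.0% of all genes were called in either direction. At 700 µM all 3 libraries lay below the controls in nfe2l2a, nqo1 and the epidermis sum. The epidermis sum also lay below all controls at 70, 3500 and 7000 µM, where nfe2l2a and nqo1 overlapped the controls. At 7000 µM nqo1 was at 13.9, 23.1 and 12.1 CPM in replicates 1, 2 and 3. Epidermis was not the only tissue list that was low at these concentrations. Macrophage markers summed to 9.94 to 10.9 CPM at 700 µM against 20.6 to 23.9 CPM in controls. There 4 of 5 were called lower, beside 3.20% of all genes called in either direction. Macrophage sums also lay below all controls at 7 µM (11.21 to 16.49 CPM), 70 µM (9.34 to 11.32), 3500 µM (11.03 to 12.25) and 7000 µM (10.76 to 14.18). Hepatocyte markers summed to 187.7 to 561.2 CPM at 700 µM, 105.1 to 184.2 at 3500 µM and 188.3 to 268.4 at 7000 µM. In controls they summed to 228.6 to 488 CPM. At 3500 µM 3 of 7 hepatocyte markers were called lower, where 9.47% of all genes were called in either direction. Fast muscle markers summed to 44740 to 53730 CPM at 700 µM, 61950 to 78390 at 3500 µM and 15970 to 43450 at 7000 µM. Their control range was 61540 to 63300 CPM. Photoreceptor, neuron and enterocyte sums lay above all controls at 700 µM. Neutrophil markers (4 of 4 with reads) summed to 12.21 to 24.55 CPM at 70 µM, 9.75 to 18.14 at 700 µM and 9.92 to 21.76 at 7000 µM, against 17.44 to 30.41 CPM in controls. Erythrocyte markers (7 of 7 with reads) summed to 651.8 to 1121 CPM at 70 µM, 671.4 to 983.2 at 700 µM and 442.5 to 650.8 at 7000 µM, against 748.8 to 1011 CPM in controls. In whole-body RNA, fewer cells of a type and less RNA per cell cannot be told apart, and the part of these tissues in the nfe2l2a and nqo1 values was not tested.

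**Figure D3:**
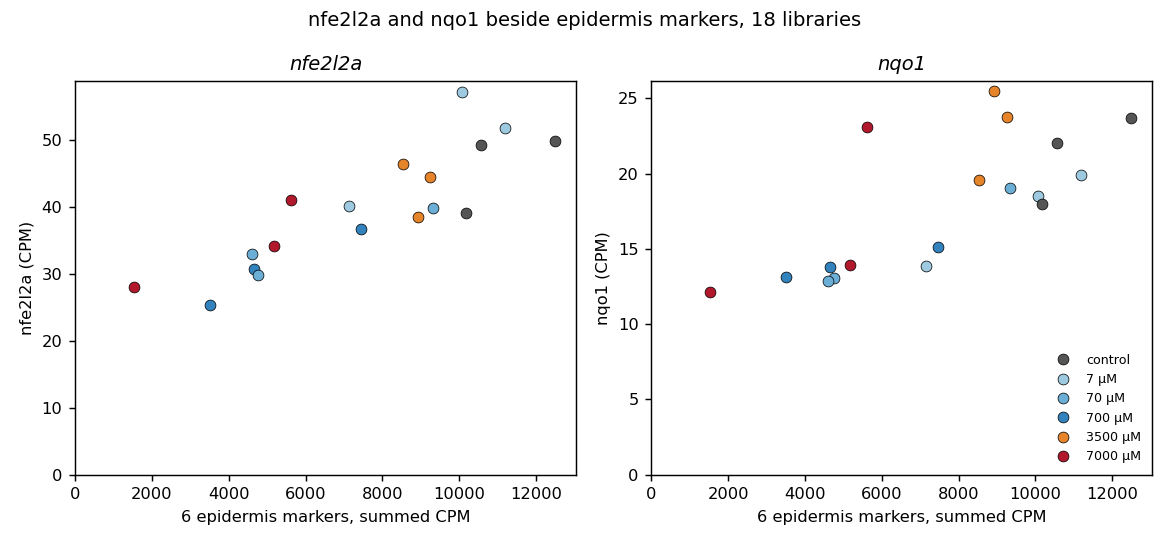
CPM of nfe2l2a (left) and nqo1 (right) against the summed CPM of 6 epidermis markers, 1 point per library, coloured by group. The 3500 µM points lie near the controls in nfe2l2a and nqo1. In epidermis markers they lie below all controls, at 8538 to 9249 against 10170 to 12500 CPM. The 7000 µM points run from 1538 to 5610 CPM of epidermis markers and from 12.1 to 23.1 CPM of nqo1.

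The deposited symbol txn belongs to a thioredoxin gene on chromosome 7 at 24357231 to 24364826, which the gene name table lists as txnb; thioredoxins are small proteins that reduce disulphides and feed electrons to peroxiredoxins. Controls had 13.94, 10.25 and 13.96 CPM, the 7 µM libraries 8.52, 10.17 and 8.24 CPM and the 70 µM libraries 8.57, 8.90 and 8.14 CPM. The 700 µM libraries had 8.38, 10.41 and 9.45 CPM, those at 3500 µM 12.2, 12.5 and 12.8 CPM, and those at 7000 µM 12.4, 12.8 and 11.6 CPM. At 7 and 70 µM all exposed libraries lay below the lowest control, by a narrow margin at 7 µM, as they did in 5.33% and 8.58% of all genes. The log2 fold changes of -0.50, -0.58 and -0.43 at 7, 70 and 700 µM were not called (SE 0.13 each, adjusted p = 0.27, 0.0676 and 0.0654). The decrease was called at 70 µM in DESeq2 (adjusted p = 0.0146) or without control replicate 2 (0.0419), and at 700 µM with upper-quartile scaling (0.0456). At 3500 and 7000 µM txn was at -0.03 and -0.06, and at -0.01 without replicate 3 at 7000 µM. A separate gene with the symbol TXN (ENSDARG00000031435, chromosome 1), looked up after the values of txn were seen, was far more abundant at 231.6 ± 10.02 TPM at 7000 µM and 213.8 ± 13.6 TPM in controls, where txn had 32.0 ± 1.9 and 34.4 ± 5.1 TPM. TXN was not called at any concentration.

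hmox1a, the inducible haem oxygenase that breaks haem down to biliverdin, was low throughout, with 16 to 49 counts per library. It had 2.85, 2.67 and 1.91 CPM at 7000 µM against 1.88, 2.58 and 2.06 in controls. The groups overlapped, and the log2 fold change of 0.19 had a 95% interval from -0.44 to 0.83 (adjusted p = 0.67). Without replicate 3 at 7000 µM it was 0.35 (adjusted p = 0.502). At the other 4 concentrations its log2 change lay between -0.41 and 0.12, and none was called. srxn1, whose product sulfiredoxin restores overoxidised peroxiredoxins, had 58 counts in all 18 libraries and did not pass the filter on low counts. It had 2, 0 and 0 counts at 7000 µM against 5, 1 and 7 in controls, a depth-scaled ratio of 0.155 with an exact 95% interval of 0.017 to 0.685 that covers counting error only. The 7, 70, 700 and 3500 µM groups summed to 20, 11, 7 and 5 counts, and the interval of each ratio to controls included 1.

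**Figure D4:**
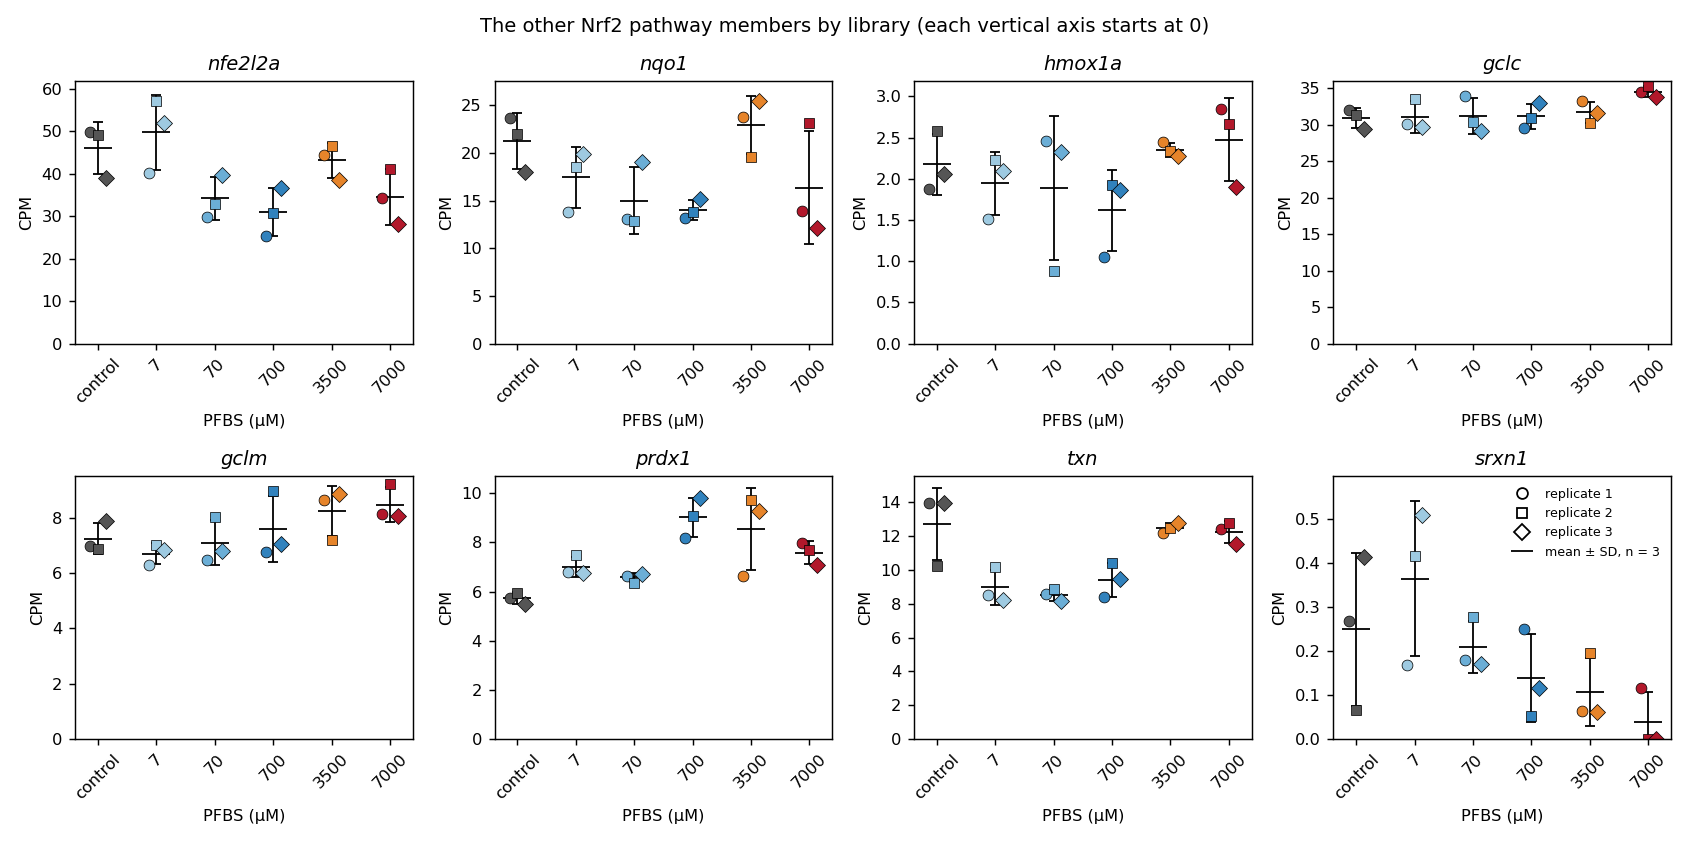
CPM of the other 8 members in each library, by PFBS concentration with controls at the low end; symbols mark the replicate number, bars the mean ± SD of 3 libraries, and each vertical axis starts at 0. prdx1 is highest at 700 and 3500 µM, txn is lowest at 7 to 700 µM, and srxn1 reaches at most 0.508 CPM in any library.

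Around these members, 88 genes of 94 on 6 lists of the wider pathway could be tested. At 7 and 70 µM 0 of the 88 passed the threshold in the quasi-likelihood test (7 and 13 at an unadjusted p under 0.05). DESeq2 called 1 and 2, and without replicate 3 at 70 µM the count there was 3 (1 higher, 2 lower). At 700 µM 1 gene was called: slc3a2b, the heavy chain of the amino acid transporters that import cystine, which rose (log2 0.60 ± 0.16, adjusted p = 0.0431), and leaving out any of the 6 libraries ended that call. The number called there was 12 (7 higher, 5 lower) with only the groups compared and 3 in DESeq2, all higher, and 0 with upper-quartile scaling, library totals alone or the replicate block (23, 24 and 24 at an unadjusted p under 0.05). At 3500 µM 13 genes were called, 11 higher and 2 lower, which is 14.8% of the lists beside 9.47% of all genes. At 7000 µM 27 were called, 15 higher and 12 lower, which is 30.7% beside 25.0%. The median log2 fold change of the 88 genes was 0.12 at 3500 µM and -0.06 at 7000 µM. At 7000 µM, 8 of the 27 calls held in every fit that left out 1 library of the comparison. They were nfe2l2b, maff, cul3b, chac1 and gpx3, all higher, and ggt1b, gstp1 and txnipb, all lower. The count of calls was 10 without replicate 3 at 7000 µM, 8 without control replicate 1 and 14 without control replicate 2. At 3500 µM, 2 of the 13 calls so held, nfe2l2b and chac1, and the count was 7 with upper-quartile scaling (5 higher, 2 lower), 5 with library totals alone (2 higher, 3 lower) and 2 without control replicate 1, so the excess of higher genes at 3500 µM was not kept with library totals alone. At 7000 µM upper-quartile scaling gave 10 higher and 16 lower. Every other pathway call named below was lost without at least 1 library of its comparison.

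Among 19 genes listed as regulators or relatives of Nrf2, 5 were higher and 3 lower at 7000 µM, which is 42.1% beside 25.0% of all genes. nfe2l2b, the second Nrf2 paralog, which work in zebrafish embryos has described as a repressor of the pathway, had 3.58 ± 0.90 CPM at 7000 µM, 4.30 ± 0.62 at 3500 µM and 1.74 ± 0.18 in controls (SD, n = 3 each). It rose 2.05-fold at 7000 µM (log2 1.04 ± 0.21, adjusted p = 0.0025) and 2.47-fold at 3500 µM (log2 1.30 ± 0.21, adjusted p = 0.00137), and both calls held in every fit without 1 library. maff, a small Maf partner, rose at 7000 µM (log2 0.56 ± 0.08, adjusted p = 0.000267) and at 3500 µM (log2 0.34, adjusted p = 0.0178). rbx1, a subunit of the ligase that marks Nrf2 for degradation, rose at both concentrations by log2 0.41 and 0.45. The repressors bach1a and bach2b, which compete with Nrf2 for the same DNA elements, fell at 7000 µM by 0.63 and 0.45 on the log2 scale, and bach2b fell by 0.55 at 3500 µM. nfe2l1a, a relative of Nrf2 known for controlling proteasome genes in mammals, was 6.27 ± 2.36 CPM at 7000 µM and 11.6 ± 2.0 in controls. It fell at 7000 µM (log2 -0.89, adjusted p = 0.0207), a call lost without control replicate 1 or without replicate 1 or 3 at 7000 µM. At 3500 µM it was at 15.4 ± 2.5 CPM and not called.

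Of 23 glutathione genes 6 were higher and 1 was lower at 7000 µM, which is 30.4% beside 25.0% of all genes. At 3500 µM 4 were higher, which is 17.4% beside 9.47%. chac1, which degrades glutathione inside cells and is a known target of the amino acid stress response, averaged 289.5 ± 49.9 CPM at 7000 µM and 393.4 ± 25.5 at 3500 µM, against 208.4 ± 8.2 in controls. It rose 1.39-fold at 7000 µM (log2 0.47 ± 0.11, adjusted p = 0.00597) and 1.89-fold at 3500 µM (log2 0.92 ± 0.11, adjusted p = 0.000137), in every fit without 1 library. ggt1b, a membrane enzyme that breaks down extracellular glutathione, had 1.03 ± 0.22 CPM at 7000 µM and 2.30 ± 0.48 in controls and fell (log2 -1.15 ± 0.27, adjusted p = 0.00652). Its relative ggt5a and the glutaredoxin glrx2 rose at 7000 µM by log2 0.52 and 0.58. slc3a2b (log2 0.59), gpx4a and hagh, the second enzyme of the glyoxalase pathway (log2 0.33), were the other rises at 3500 µM.

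The thioredoxin and peroxiredoxin list had 0 higher and 3 lower of 13 genes at 7000 µM, with a median log2 fold change of -0.21. The share called was 23.1%, near the 25.0% of all genes. txnipb, which encodes a protein that binds and inhibits thioredoxin in mammals, had 20.6 ± 7.0 CPM at 7000 µM and 59.0 ± 7.7 in controls. It fell there (log2 -1.52 ± 0.25, adjusted p = 0.000581), and the call held in every fit without 1 library. At 3500 µM 0 of the 13 were called in the quasi-likelihood test (5 at an unadjusted p under 0.05), with a median of 0.21. Between 7000 and 3500 µM, 5 of these 13 were lower and 0 higher, which is 38.5% beside 6.28% of all genes. Over all 6 lists 1 was higher and 10 lower, which is 12.5%. Of the 9 members 0 were called between these concentrations, beside the same 6.28% (2 at an unadjusted p under 0.05, 0 in DESeq2). Without replicate 2 at 7000 µM nqo1 and gpx1a were called lower (adjusted p = 0.0179 and 0.0298), and with scaling by library totals alone gpx1b and gclc were called higher (adjusted p = 0.044 and 0.0412). That scaling shifted the median of all genes by 0.16 in this comparison, and the share of higher genes among all calls was 79.8% with it and 38.8% with the main scaling. On the lists it gave 5 higher and 4 lower genes. In the same comparison the lists had 2 calls with only the groups compared and 3 without replicate 3 at 7000 µM, all lower, in place of 11.

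Of the remaining lists at 7000 µM, superoxide and peroxide removal had 1 higher of 5 genes, the extracellular superoxide dismutase sod3a (log2 1.25 ± 0.42, adjusted p = 0.0395), at 0.711 ± 0.301 CPM against 0.301 ± 0.128 in controls. Haem and iron had 2 higher and 2 lower of 9, which is 44.4% beside 25.0% of all genes. The falls were fech, which inserts iron into haem (log2 -1.07, adjusted p = 0.0411), and blvrb, a biliverdin reductase (log2 -0.60, adjusted p = 0.0128). Erythrocyte markers summed to 442.5 to 650.8 CPM at 7000 µM and 748.8 to 1011 in controls, with 4 of 7 called lower beside 25.0% of all genes in either direction. The part of erythrocytes in these falls was not tested. NADPH supply and other targets had 1 higher and 3 lower of 19, which is 21.1% beside 25.0% of all genes. The falls were osgin2 (log2 -0.77), ptgr2, a prostaglandin reductase (log2 -0.46), and gstp1. The gstp1 call held in every fit without 1 library, with log2 changes of -0.463 to -0.295 (adjusted p = 0.00754 to 0.0486). At 3500 µM this last list had 3 higher and 1 lower, which is 21.1% beside 9.47% of all genes. There abcc2, an exporter of glutathione conjugates (log2 0.63), cbr1l (0.45) and idh1, a cytosolic source of NADPH (0.42), were higher, and osgin2 was lower (-0.92). fth1b, a ferritin heavy chain gene, was higher at 7000 and 3500 µM by log2 0.36 and 0.38.

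**Figure D5:**
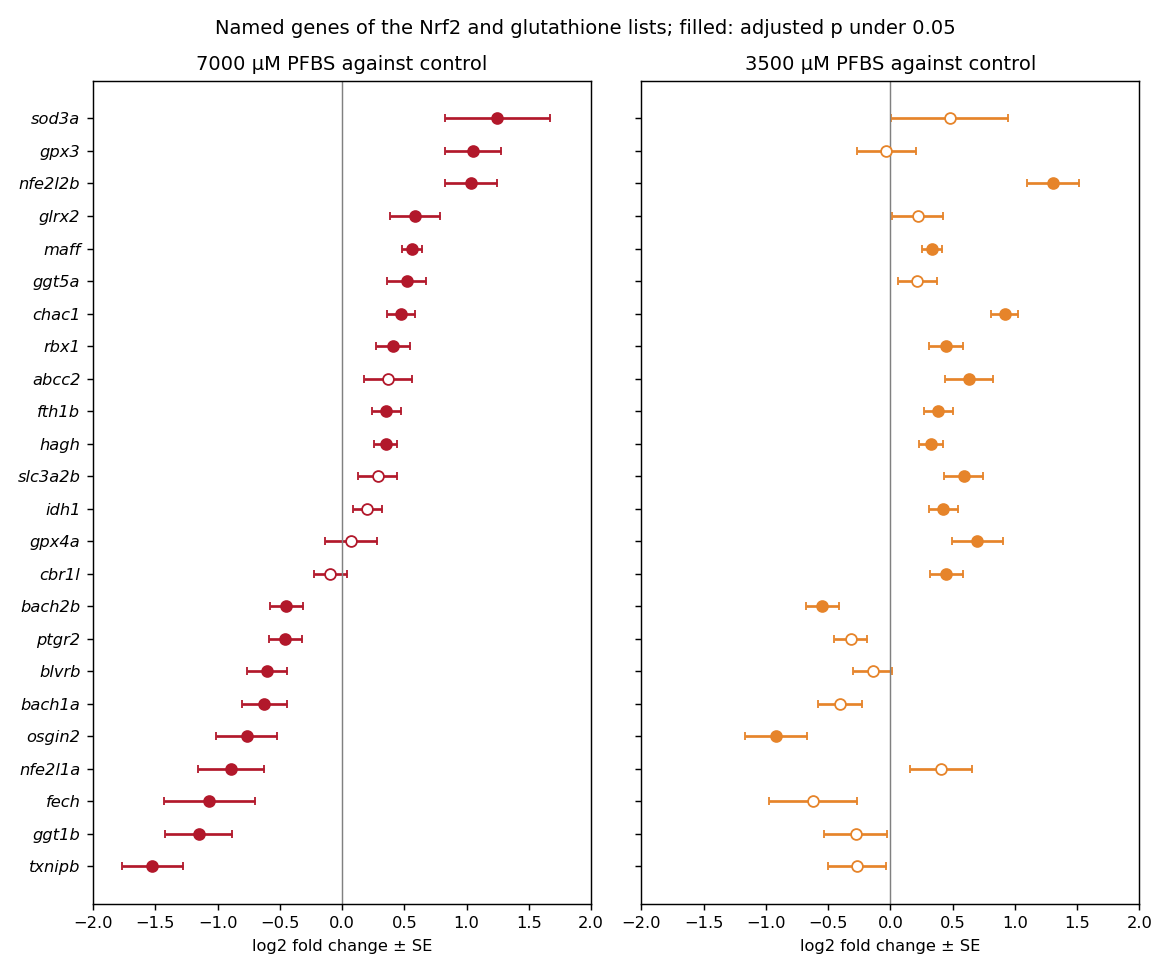
log2 fold change ± SE of the named pathway genes, without cul3b and gstp1, at 7000 µM (left) and 3500 µM (right) PFBS against controls. Genes are ordered by the value at 7000 µM, and filled points have an adjusted p under 0.05. nfe2l2b, maff and chac1 are filled to the right of 0 in both panels, and txnipb, ggt1b and nfe2l1a are filled on the left at 7000 µM only.

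The genes whose log2 CPM ran most like that of gpx1b over the 18 libraries were MGARP (Pearson r = 0.964), bbox1 (0.952), oaz2b (0.941), stard13a (0.933) and ivns1abpb (0.929). Those most like nfe2l2a were asap2b (0.962), atp1a1a.2 (0.956), erbb3a (0.942), serinc2 (0.938) and TSTA3 (0.936). These are the highest of 21046 values, the libraries share the differences between the 6 groups, and no p is attached to them. Mean levels at 7000 µM and in controls were 226 and 123 CPM for MGARP and 27.1 and 7.28 for oaz2b. For the neighbours of nfe2l2a they were 8.79 and 15.9 CPM for asap2b and 18.2 and 33.7 for atp1a1a.2. Among the 36 pairs of tested members r ran from -0.37 (gpx1a with gpx1b) to 0.75 (nfe2l2a with nqo1), again as a description of these libraries.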

How the data were processed

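Whole-body RNA-seq of 18 libraries was analysed from the table the authors deposited, which has 59876 transcripts and, per the file headers, whole-number read counts, RPKM and TPM values, and the authors' log2 fold changes with p-values and q-values per transcript. The deposited RPKM values were not used, and the deposited TPM values served to compare levels between genes. The labels and headers name no aligner, counter, strand setting, annotation or genome build, and positions are given as the table lists them.

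Counts were summed per gene identifier and tested with edgeR 4.0.16 in R 4.3.3: filterByExpr left 21046 genes, libraries were scaled by trimmed mean of M values (TMM, which also enters the CPM values), and all 18 libraries entered 1 quasi-likelihood fit with 12 residual degrees of freedom (coefficient of variation between samples of a group 12.9%). Tests were two-sided F tests with Benjamini-Hochberg adjustment over 21046 genes and a threshold of 0.05. The 5 comparisons with controls share the same 3 control libraries. The trend took the 6 groups as equally spaced steps. Libraries of a group differed beyond sampling noise in all 18 pairs (chi-square per degree of freedom 5.5 to 61.55). The fit was also run on simulated counts with 200 changed genes. These had the same scatter setting for every gene and no library that stood apart. That run therefore does not show how such features of the data affect the calls.

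Members and lists were chosen with earlier results of these data known. Pathway genes named are those past the threshold against controls, by absolute log2 fold change, up to 15 per comparison. cul3b and gstp1, outside that limit, are named because their calls at 7000 µM held without any 1 library. For gpx1b and nfe2l2a the 5 genes with the highest Pearson correlation are named. Alternatives were upper-quartile scaling, library totals alone, no filter on low counts, only the groups compared, a replicate block, protein-coding transcripts only, transcripts in place of genes, DESeq2 1.42.0 and leaving out each library.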

Additional observations from a re-analysis of the deposited data

How the results depend on the processing

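The labels do not say whether replicate numbers pair the samples. The deviations of same-numbered libraries correlated at a median r of -0.01 (-0.335 to 0.266 over 45 pairs). Those of libraries with other numbers did so at 0.02 (-0.334 to 0.36 over 90 pairs). These values show no sign of pairing but cannot show that the samples were unpaired. The replicate block is given as a count of calls. With the replicate block 3 genes were called at 7 µM, 37 at 70 µM and 441 at 700 µM. Transcripts in place of genes gave 0, 18, 74 and 1039 calls at 7, 70, 700 and 3500 µM and 565 between 7000 and 3500 µM, and DESeq2 gave 42, 211 and 1053 at 7, 70 and 700 µM. With only the groups compared in the fit 1902 genes were called at 700 µM and 206 between 7000 and 3500 µM, where library totals alone gave 2882. Called members numbered 1 at 70 µM in DESeq2, 4 at 700 µM with only the groups compared, and 2 between 7000 and 3500 µM with library totals alone. They numbered 1 with transcripts in place of genes at 700, 3500 and 7000 µM and over the trend, 1 at 3500 µM with library totals alone or only the groups compared, and 1 at 7000 µM with upper-quartile scaling, no filter or only the groups compared. In these fits with 1 called member at 700 to 7000 µM, prdx1 was the call lost.

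Changes of sign concerned members near 0 that were not called in the fits named here, on the log2 scale. With upper-quartile scaling gclc was at -0.00501, -0.0252, -0.0335 and -0.0137 at 7, 70, 700 and 3500 µM, and gpx1a at -0.021 at 70 µM. With only the groups compared gclc was at -0.00206, -0.0185 and -0.006 at 7, 70 and 700 µM, and gpx1a at -0.0132 at 70 µM. With transcripts in place of genes gclc was at -0.0067 and -0.0029 at 70 and 700 µM, and gpx1a at -0.0025 at 70 µM. With library totals alone gclm was at 0.0152 at 70 µM, and at 3500 µM gpx1a was at -0.0604, hmox1a at -0.00776, nqo1 at -0.0193 and gclc at -0.0922, where that scaling shifted the median of all genes to -0.115. Between 7000 and 3500 µM txn was at 0.132 with library totals alone and 0.00547 in DESeq2. The causes were not tested.

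Leaving out 1 library gave 2 to 13 calls over all genes at 7 µM, 8 to 289 at 70 µM, 42 to 1302 at 700 µM, 478 to 3333 at 3500 µM, 2362 to 5701 at 7000 µM and 287 to 1726 between 7000 and 3500 µM. Called members ranged from 0 to 1 at 70 µM, 0 to 3 at 700 µM, 1 to 2 at 3500 µM, 1 to 4 at 7000 µM, 0 to 2 between 7000 and 3500 µM and 2 to 4 over the trend. Log2 changes crossed 0 for gpx1a (-0.000893 to 0.168 at 7 µM, -0.0275 to 0.0612 at 70 µM, -0.0115 to 0.146 at 3500 µM), hmox1a (-0.263 to 0.000203 at 7 µM, -0.434 to 0.143 at 70 µM, -0.0227 to 0.231 between 7000 and 3500 µM) and gclc (-0.0506 to 0.0409, -0.0539 to 0.0576, -0.0305 to 0.0473 and -0.0155 to 0.0696 at 7 to 3500 µM). They also did for gclm (-0.128 to 0.0366 at 70 µM, -0.0671 to 0.146 at 700 µM, -0.0478 to 0.115 between 7000 and 3500 µM), txn (-0.158 to 0.0434 at 3500 µM, -0.186 to 0.0158 at 7000 µM, -0.0584 to 0.0145 between 7000 and 3500 µM) and the nqo1 trend (-0.0695 to 0.00296). gpx1b kept its calls at 3500 and 7000 µM in every alternative run. Depth limits hmox1a and srxn1, with at most 49 and 9 counts in a library.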
